A study of Saccharomyces cerevisiae with 20 samples.

Results

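Translation efficiency, the number of ribosome footprints on a coding sequence relative to the abundance of its mRNA, was compared at 30C between budding yeast cells that made the RNA helicase Dbp1 and cells that made its paralog Ded1. In DBP1 cells the DED1 regulatory regions drove the DBP1 coding sequence, which stood in place of DED1. In DED1 cells the same regulatory regions drove DED1 itself. Both were SK1 strains grown vegetatively with aeration at 30C in YEPD, a rich medium, harvested at an OD of 0.6, with the elongation inhibitor cycloheximide added at 100 uM for the last 1 min. The labels give a single strain number for each genotype, so the helicase cannot be told apart from any other difference between those strains. Each strain had 3 cultures at 30C, and each culture gave 1 mRNA and 1 footprint library, which makes 12 of the study's 20 libraries. The other libraries came from 2 cultures per strain at 37C.

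Ded1 and Dbp1 are DEAD-box proteins, which use ATP to open RNA structure. Ded1 is essential for growth and helps the small ribosomal subunit load on mRNA and scan the 5′ leader to the start codon, together with the eIF4A helicase and its partners. Dbp1 is scarce in cells growing on rich medium and can replace Ded1 when it is overproduced. A transcript that depends on one helicase more than on the other would be expected to lose or gain footprints without a matching change in mRNA. The study asked how specific each helicase is.

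For each culture, efficiency was the footprint RPKM (read density corrected for gene length and sequencing depth) divided by the mRNA RPKM of the same culture. Of the 6679 genes in the table, 4977 had a mean of at least 5 RPKM in both assays over the 10 libraries of each and were tested, and 1702 were not. This mean runs over both strains and both temperatures, so a tested gene could lie below 5 RPKM in a strain at 30C. Among genes that passed the efficiency test, mean footprints in DED1 cells at 30C were 4.94 RPKM for GDB1 and 4.02 RPKM for RGI1. For CSS1 they were 1.84 RPKM in DBP1 cells. At that limit, SSP1 had a mean of 5.01 RPKM of footprints and was tested, whereas CQD1 with 5.00 RPKM fell just short. Depth at 30C was 4.82 to 9.39 M reads per footprint library and 4.42 to 8.7 M reads per mRNA library, and a strain's median efficiency was close to the other's. It was 0.693, 0.651 and 0.654 in the DBP1 cultures and 0.663, 0.646 and 0.649 in the DED1 cultures. Each library is scaled to its own depth, so a rise or fall of all translation would not be seen.

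The swapped genes were the first check of the labels. DBP1 (YPL119C) mRNA stood at 130, 108 and 117 RPKM in DBP1 cells, against 3.90, 3.64 and 4.57 RPKM in DED1 cells, where only the native DBP1 locus was left. DBP1 footprints were 515, 475 and 498 RPKM in DBP1 cells, against 3.74, 2.99 and 3.03 RPKM in DED1 cells. DED1 (YOR204W) had 3.19, 0.393 and 0.903 RPKM of mRNA in DBP1 cells, from 6 to 30 reads, against 54.2, 50.6 and 48.5 RPKM in DED1 cells. DED1 footprints were 1.55, 1.83 and 2.60 RPKM in DBP1 cells, against 617, 652 and 744 RPKM in DED1 cells. Every library thus carried the helicase its label names.

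Under the same regulatory regions, the DBP1 coding sequence carried fewer footprints per mRNA than the DED1 coding sequence. DBP1 in DBP1 cells had efficiencies of 3.96, 4.38 and 4.25, and DED1 in DED1 cells 11.4, 12.9 and 15.3. The means were 4.20 ± 0.219 for DBP1 in DBP1 cells and 13.2 ± 2.0 for DED1 in DED1 cells (SD, n = 3 each), a ratio of 0.318, and the cultures did not overlap. An exact permutation test over cultures, two-sided, had p = 0.1, its lower limit with 3 cultures in each strain. Reads from the native and the inserted DBP1 cannot be separated in DBP1 cells. In DED1 cells the native DBP1 transcript, with 44 to 55 mRNA reads per library, had efficiencies of only 0.959, 0.822 and 0.662. The efficiency of the DBP1 coding sequence was therefore higher in DBP1 cells than in DED1 cells by 2.30 ± 0.13 on the log2 scale (SE; adjusted p = 1.72e-05). DED1 also passed the test, at -3.28 ± 0.37 (adjusted p = 0.00814), but its value in DBP1 cells rests on the few stray reads given above and is no efficiency of a transcript.

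**Figure D1:**
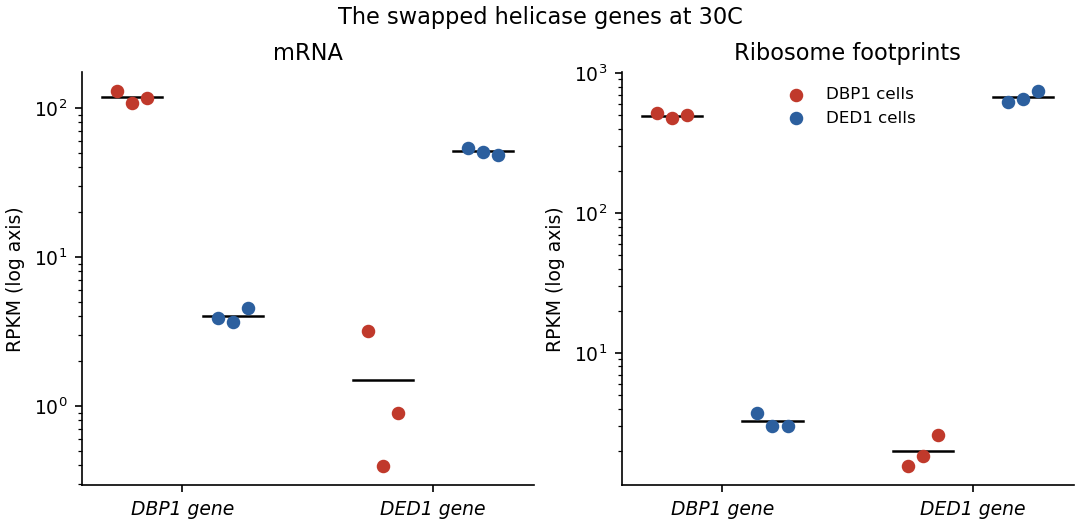
mRNA (left) and footprint (right) levels of the swapped genes in RPKM on log axes, with DBP1 cells left of DED1 cells for each gene; points are the 3 cultures at 30C and lines their means. DBP1 exceeded DED1 in mRNA (108 to 130 RPKM in DBP1 cells, 48.5 to 54.2 RPKM in DED1 cells), whereas its footprints (475 to 515 RPKM) lay below those of DED1 (617 to 744 RPKM).

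Beyond the swapped genes, translation efficiency differed little between the strains. Of 4977 genes, 12 passed the test at an adjusted p under 0.05, or 0.241%. Of these, 9 were higher in DBP1 cells and 3 lower, and without DBP1 and DED1 they were 8 and 2. At an unadjusted p under 0.05 there were 226 genes higher and 139 lower. The same genes and cultures gave many more differences in mRNA, with 404 genes higher and 64 lower (9.4% of those tested), and in footprints, with 517 higher and 154 lower (13.5%). After median-of-ratios scaling the footprint calls were 368 higher and 248 lower, and the efficiency calls 5 higher and 3 lower. The median absolute difference was 0.08 for efficiency, 0.14 for mRNA and 0.16 for footprints, all on the log2 scale. Differences over 1 on that scale numbered 19 for efficiency, 120 for mRNA and 150 for footprints.

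The precision of the experiment bounds what could have been missed. The median SE of an efficiency difference was 0.11 on the log2 scale, around a median difference of 0.02. For 4436 genes, 89.1% of those tested, the 95% confidence interval of the difference lay wholly within 1.5-fold either way, and for 4889 genes, 98.2%, it lay within 2-fold. Across genes, log2 efficiencies of 2 cultures of one strain correlated with a Pearson r of 0.94 to 0.958, and those of 2 cultures of different strains with 0.923 to 0.947. Genes are not independent replicates, so these values are descriptions.

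**Figure D2:**
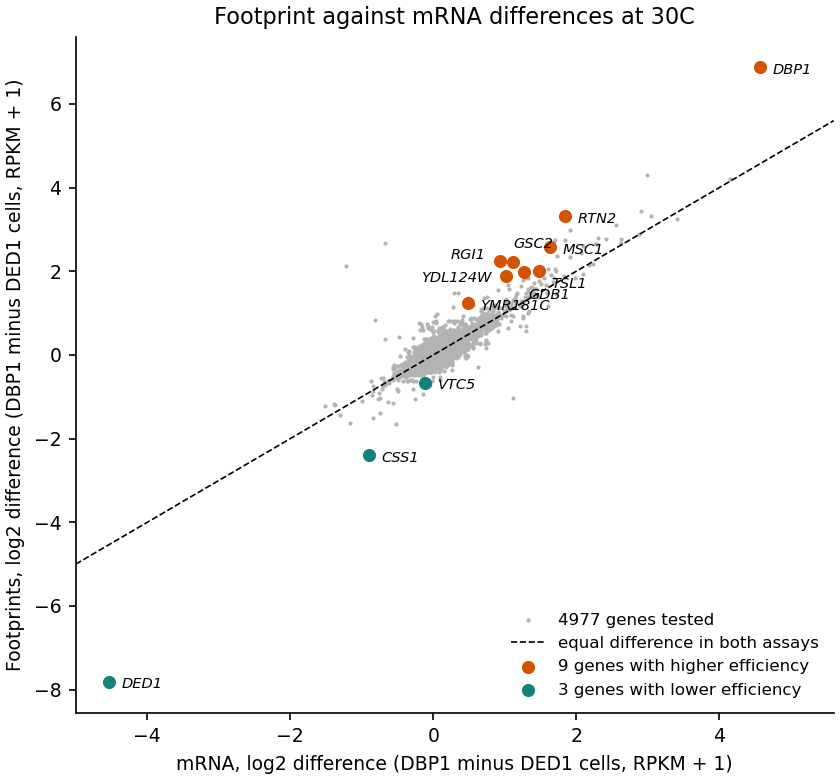
Log2 difference between DBP1 and DED1 cells at 30C in footprints (vertical) against mRNA (horizontal), each from RPKM + 1; a grey point is 1 of 4977 genes tested, and coloured points are the 12 genes past the efficiency test. Most genes lie along the dashed line of equal difference, and the 8 genes with higher efficiency other than DBP1 lie above it with mRNA differences of 0.48 to 1.84.

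The 8 genes whose efficiency rose were GSC2, MSC1, RTN2, RGI1, TSL1, GDB1, YMR181C and YDL124W, and 7 of them also had more mRNA in DBP1 cells by the mRNA test. The exception was RGI1, whose mRNA was 0.93 ± 0.26 higher on the log2 scale with an adjusted p of 0.0526. All 8 had more footprints by the footprint test. A rise in efficiency means by definition that the footprint difference exceeded the mRNA difference. For each of the 8, picked by a test on the same values, the 3 DBP1 cultures lay apart from the 3 DED1 cultures. Cultures lay apart that way for 7.23% of all genes, and the opposite way for 4.86%, so separation alone is a weak criterion.

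TSL1 and GDB1 act on storage carbohydrates. TSL1 encodes a regulatory subunit of the trehalose synthase complex, and GDB1 the glycogen debranching enzyme. TSL1 efficiency was 2.13, 2.07 and 2.57 in DBP1 cells and 1.55, 1.65 and 1.57 in DED1 cells, a difference of 0.52 ± 0.09 on the log2 scale (adjusted p = 0.0464). The DED1 cultures were nearly equal, and the lowest DBP1 culture stood above all of them. TPS3, the TSL1 paralog in the same complex, was looked up afterwards and had efficiencies of 1.92 ± 0.285 in DBP1 cells and 1.91 ± 0.305 in DED1 cells (SD, n = 3 each). GDB1 efficiency was 1.57, 1.47 and 1.49 in DBP1 cells and 0.874, 0.730 and 1.07 in DED1 cells, a difference of 0.72 ± 0.12 (adjusted p = 0.0464). GDB1 footprints stood at 19.3, 27.8 and 20.8 RPKM in DBP1 cells, against 5.68, 4.29 and 4.84 RPKM in DED1 cells. PGM2, a phosphoglucomutase that joins glycogen to glycolysis, lay just short of the threshold at 0.58 ± 0.11 (adjusted p = 0.092).

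GSC2 encodes the catalytic subunit of the 1,3-beta-glucan synthase that is induced under stress and in sporulation. GSC2 mRNA was 18.8, 18.1 and 18.8 RPKM in DBP1 cells, against 8.97, 8.15 and 6.97 RPKM in DED1 cells. GSC2 footprints were 26.9, 27.2 and 31.9 RPKM in DBP1 cells, against 5.01, 6.54 and 4.74 RPKM in DED1 cells. The footprint levels were thus farther apart than the mRNA levels, with tight agreement among the DBP1 cultures. GSC2 efficiency was 1.43, 1.50 and 1.69 in DBP1 cells and 0.559, 0.802 and 0.681 in DED1 cells, a difference of 1.09 ± 0.14 (adjusted p = 0.014). Its paralog FKS1, the synthase subunit of growing cells, shares much of its sequence, and how shared reads were counted is not given in the sources used here. FKS1, looked up for that reason, had efficiencies of 2.67 ± 0.219 in DBP1 cells and 3.19 ± 0.367 in DED1 cells (SD, n = 3 each), a difference of -0.25 ± 0.10 that did not pass (adjusted p = 0.584).

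RTN2 and MSC1 showed the largest shift in footprints among the genes that rose other than DBP1. RTN2 encodes a reticulon-like protein, the minor paralog of the membrane-shaping RTN1 of the endoplasmic reticulum. RTN2 footprints were 57.8, 110 and 73.7 RPKM in DBP1 cells, against 10.3, 4.67 and 6.78 RPKM in DED1 cells. RTN2 mRNA was 60.7, 125 and 82.6 RPKM in DBP1 cells, against 23.7, 23.8 and 22.2 RPKM in DED1 cells. In DED1 cells RTN2 thus carried few footprints for its mRNA level. RTN2 efficiency was 0.951, 0.878 and 0.892 in DBP1 cells and 0.437, 0.196 and 0.305 in DED1 cells, a difference of 1.47 ± 0.25 (adjusted p = 0.0464). RTN1, looked up for comparison, had efficiencies of 1.69 ± 0.0495 in DBP1 cells and 1.65 ± 0.0409 in DED1 cells (SD, n = 3 each).

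MSC1 encodes a protein first found in a screen on meiotic recombination. MSC1 mRNA was 78.0, 120 and 102 RPKM in DBP1 cells, against 34.2, 30.2 and 29.2 RPKM in DED1 cells. MSC1 footprints were 63.0, 89.7 and 78.9 RPKM in DBP1 cells, against 14.9, 9.45 and 12.4 RPKM in DED1 cells. The 3 DBP1 cultures agreed closely in efficiency although their mRNA levels differed. MSC1 efficiency was 0.808, 0.750 and 0.773 in DBP1 cells and 0.435, 0.314 and 0.423 in DED1 cells, a difference of 0.94 ± 0.14 (adjusted p = 0.0296).

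RGI1, YDL124W and YMR181C were measured from fewer reads. RGI1, a gene involved in energy metabolism under respiratory growth, had efficiencies of 0.489, 0.767 and 0.622 in DBP1 cells and 0.234, 0.294 and 0.114 in DED1 cells. Its difference of 1.33 ± 0.21 (adjusted p = 0.0464) rests on as few as 4 footprint reads in a library. YDL124W, an aldo-keto reductase gene, had efficiencies of 0.651, 0.614 and 0.767 in DBP1 cells and 0.361, 0.366 and 0.304 in DED1 cells, a difference of 0.88 ± 0.13 (adjusted p = 0.0309). YMR181C, an uncharacterised reading frame, had efficiencies of 0.657, 0.670 and 0.713 in DBP1 cells and 0.332, 0.378 and 0.424 in DED1 cells, a difference of 0.75 ± 0.12 (adjusted p = 0.0464). In both genes the DBP1 cultures lay well above the DED1 cultures, and in YMR181C they formed a narrow cluster. YDL124W had at least 36 footprint reads per library, and YMR181C at least 17.

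The 2 genes that fell beside DED1 were VTC5 and CSS1. VTC5 encodes a subunit of the vacuolar complex that makes polyphosphate. VTC5 mRNA was 26.1, 25.7 and 24.3 RPKM in DBP1 cells, against 28.3, 29.3 and 25.1 RPKM in DED1 cells, a difference that did not pass (-0.11 ± 0.14 on the log2 scale, adjusted p = 0.644). VTC5 footprints were 8.33, 9.86 and 8.31 RPKM in DBP1 cells, against 14.7, 15.2 and 14.0 RPKM in DED1 cells. VTC5 was the only one of the 12 genes far from the mRNA threshold. Its efficiency was 0.320, 0.384 and 0.341 in DBP1 cells and 0.519, 0.517 and 0.558 in DED1 cells, a difference of -0.56 ± 0.09 (adjusted p = 0.0464).

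CSS1 (YIL169C) encodes a secreted glycoprotein with serine- and threonine-rich repeats and resembles HPF1. CSS1 efficiency was 0.838, 0.947 and 0.659 in DBP1 cells and 3.22, 3.40 and 1.85 in DED1 cells, a difference of -1.50 ± 0.19 (adjusted p = 0.0133). CSS1 mRNA was 2.26, 2.30 and 2.22 RPKM in DBP1 cells, against 6.01, 5.09 and 4.30 RPKM in DED1 cells. This fall passed the mRNA test (-0.90 ± 0.19 on the log2 scale, adjusted p = 0.0137). Mean CSS1 mRNA was 3.7 RPKM over the 30C libraries, below the limit of 5 RPKM, and 5.34 RPKM with the 37C libraries included. With the filter mean taken over the 30C libraries alone, CSS1 was not tested. CSS1 footprints were 1.89, 2.18 and 1.46 RPKM in DBP1 cells, against 19.4, 17.3 and 7.95 RPKM in DED1 cells. The counts behind these levels are low, by estimate down to 21 footprint reads in a library. No estimated CSS1 count under 100 came out as a whole number, so that figure is rough. Reads from repeats shared with HPF1 may be assigned to either gene. HPF1 efficiency was 1.92, 2.21 and 1.35 in DBP1 cells and 3.51, 2.83 and 2.19 in DED1 cells. The 2 groups of HPF1 values overlap slightly as printed. With the 1 RPKM added to both levels for the fit, they lay just apart. The difference of -0.65 ± 0.19 did not pass (adjusted p = 0.38).

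**Figure D3:**
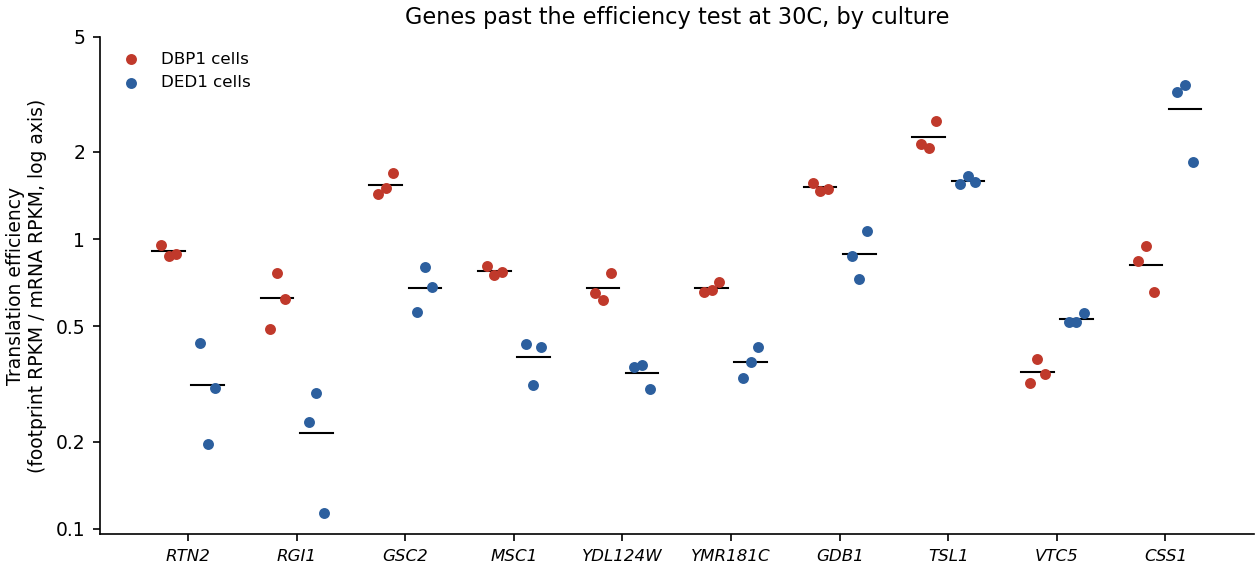
Translation efficiency (footprint RPKM over mRNA RPKM, log axis) of the 10 genes past the test other than the swapped ones, by culture at 30C; DBP1 cells stand left of DED1 cells, and lines are means. In the 8 genes to the left all DBP1 cultures lie above all DED1 cultures, for example RTN2 at 0.878 to 0.951 in DBP1 cells and 0.196 to 0.437 in DED1 cells; VTC5 and CSS1 show the opposite.

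These 10 calls were close to the threshold. When footprint and mRNA libraries were fitted as separate samples and not joined by culture, only DBP1 and DED1 passed. With 1 culture left out, the fit called 2 genes without DBP1 replicate 1, 3 without DBP1 replicate 2, 2 without DBP1 replicate 3, 5 without DED1 replicate 2 and 4 without DED1 replicate 3, all of them among the 12. Without DED1 replicate 1 it called 11 genes, 5 higher and 6 lower in DBP1 cells, of which 6 were among the 12. CSS1 kept its call in 4 of these 6 fits, GSC2 in 2, and MSC1, RGI1, GDB1 and RTN2 in 1 each, whereas TSL1, YDL124W, YMR181C and VTC5 lost it in all 6. All 10 kept their direction in each.

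Further genes had differences as large without passing. They were chosen among genes whose cultures lay apart and whose mean was at least 20 RPKM in both assays, over the 10 libraries of each. The largest uncalled rises in value were those of DMO1 (1.12 ± 0.24, adjusted p = 0.145) and ICL1 (1.05 ± 0.37, adjusted p = 0.542). ICL1 encodes isocitrate lyase of the glyoxylate cycle. Its footprints were 130.5, 24.2 and 48.8 RPKM in DBP1 cells, against 3.1, 7.87 and 13.85 RPKM in DED1 cells. DMO1 efficiency was 2.37, 2.41 and 2.74 in DBP1 cells and 1.35, 1.04 and 1.08 in DED1 cells, so its groups were far apart. On the lower side the same choice gave YBL039C-A (-0.79 ± 0.29, adjusted p = 0.581), HPF1, described above, APT2 (-0.61 ± 0.17, adjusted p = 0.329), SAN1 and PTC2. PTC2, a protein phosphatase, had the lowest p-value of these and stood at 1.27, 1.12 and 1.35 in DBP1 cells and 1.60, 1.84 and 1.96 in DED1 cells (-0.52 ± 0.09, adjusted p = 0.0674). SAN1, a nuclear ubiquitin ligase for misfolded proteins, stood at 0.912, 0.758 and 1.04 in DBP1 cells and 1.17, 1.36 and 1.68 in DED1 cells (-0.61 ± 0.13, adjusted p = 0.158). PTC2 and SAN1 mRNA differed by 0.00 ± 0.12 and 0.09 ± 0.11 on the log2 scale, so their efficiency values followed the footprints.

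General stress genes, targets of the transcription factors Msn2 and Msn4, had more mRNA in DBP1 cells, and some of them also had higher efficiency. Of 52 tested, 42 had more mRNA in DBP1 cells and 43 more footprints, beside 404 and 517 of all 4977 genes. The list's median log2 differences were 1.30 and 1.60. Some of these genes were put on the list with their mRNA differences known, so that direction is no independent evidence. Efficiency comes from the same mRNA and footprint values, and all gene lists were chosen with earlier results known. The efficiency values of the lists are therefore descriptions too. Efficiency rose for 4 of the 52, MSC1, TSL1, GDB1 and RTN2, and fell for none, beside 9 and 3 of all 4977 genes. The list's median log2 difference in efficiency was 0.20, against 0.02 over all genes tested. The list's median efficiency was 0.933, 0.971 and 0.989 in the DBP1 cultures and 0.711, 0.694 and 0.733 in the DED1 cultures. The DBP1 cultures lay above the DED1 cultures for 20 of the 52 genes, or 38.5%, and below them for 0. With a pseudocount of 5 they lay above for 17 (32.7%, beside 6.53% of all genes) and below for 1. Over all genes the shares above and below in the main fit were 7.23% and 4.86%, or 292 genes above and 306 below after median-of-ratios scaling.

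Efficiency differences on the stress list ran from -0.39 to 1.51. HSP12, a membrane-protecting heat shock protein, had a large mRNA difference, and its efficiencies overlapped between the strains. HSP12 mRNA was 923, 950 and 1279 RPKM in DBP1 cells, against 41.4, 40.2 and 114 RPKM in DED1 cells, and its efficiencies were 1.07, 1.12 and 1.02 in DBP1 cells and 0.847, 1.34 and 0.971 in DED1 cells. The HSP12 difference in efficiency was 0.05, with a 95% confidence interval of -0.35 to 0.46. CTT1, the cytosolic catalase, and ALD3, a stress-induced aldehyde dehydrogenase, had higher values that did not pass. CTT1 efficiency was 0.913, 0.952 and 1.01 in DBP1 cells and 0.501, 0.300 and 0.399 in DED1 cells (1.08 ± 0.27, adjusted p = 0.246). ALD3 efficiency was 0.287, 0.388 and 0.465 in DBP1 cells and 0.0307, 0.0901 and 0.116 in DED1 cells (1.51 ± 0.29, adjusted p = 0.092), with as few as 7 footprint reads in a library. HSP12, CTT1 and ALD3 were chosen after their values were seen. The list's median efficiency difference was 0.11 with a limit of 20 RPKM in both assays and 0.10 with a pseudocount of 5. Leaving out 1 culture gave 0.14 to 0.23.

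The genes of trehalose and glycogen metabolism gave the same median of 0.20 over 14 tested, of which 10 also stand on the stress list. TSL1 and GDB1 rose, none fell, and the cultures lay apart upwards for 6 of the 14 (42.9%) and downwards for 0, beside 7.23% and 4.86% of all genes. The list's median efficiency was 1.04, 1.07 and 1.25 in the DBP1 cultures and 0.865, 0.823 and 0.952 in the DED1 cultures. With a pseudocount of 5 the median was 0.06, and 5 of the 14 (35.7%) lay apart upwards.

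Of 24 sulfur assimilation and methionine genes tested, 7 had less mRNA and 10 fewer footprints in DBP1 cells, beside 64 and 154 of all 4977 genes. None passed the efficiency test, 17 had efficiency differences below 0 and 7 above, and the median was -0.06. MET10 and MET5, the subunits of sulfite reductase, had the lowest efficiency p-values of the list. MET10 efficiency was 0.791, 0.699 and 0.794 in DBP1 cells and 1.01, 1.17 and 1.21 in DED1 cells (-0.54 ± 0.09, adjusted p = 0.0526). MET5 efficiency was 1.03, 1.27 and 1.10 in DBP1 cells and 1.62, 1.80 and 1.69 in DED1 cells (-0.57 ± 0.13, adjusted p = 0.176). Both subunits thus lay apart downwards in every culture, while MET8 (0.39 ± 0.13, adjusted p = 0.467), which acts in the synthesis of their siroheme cofactor, had the opposite sign.

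**Figure D4:**
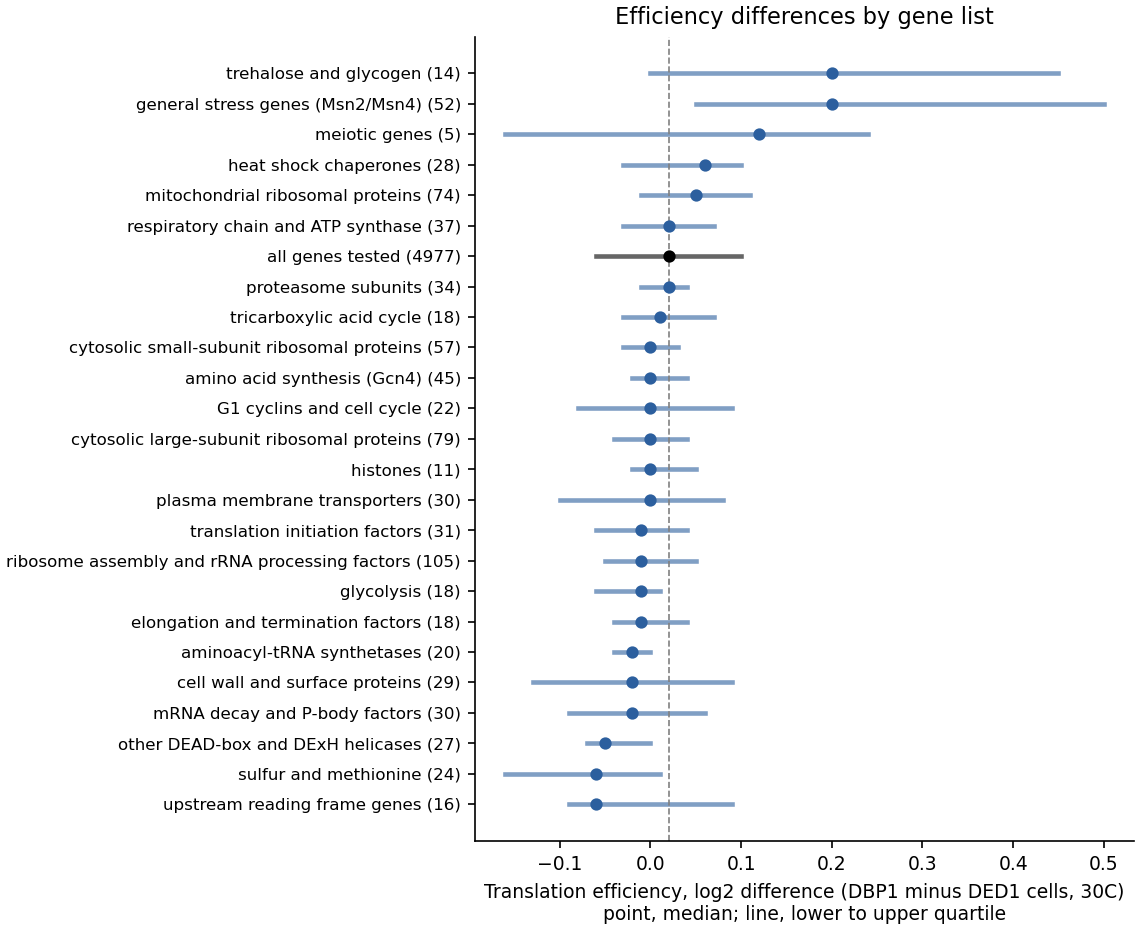
Median (point) and quartiles (line) of the log2 difference in translation efficiency between DBP1 and DED1 cells at 30C, for each gene list with at least 5 tested members, whose number is in brackets; the black point and dashed line are all 4977 genes at 0.02. The stress and the trehalose and glycogen lists have medians of 0.20, and the lists of the protein synthesis machinery lie between -0.05 and 0.05.

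No gene of the translation machinery passed the efficiency test, beside 12 of all 4977 genes (0.241%). With so few calls over all genes, the lack of one in lists of these sizes says little. The medians and ranges describe these lists better. None of 31 initiation factor genes passed, and their differences ran from -0.24 to 0.15 with a median of -0.01. SUI1, which encodes eIF1, had the lowest p of that list, with efficiencies of 0.957, 0.953 and 0.967 in DBP1 cells and 0.899, 0.846 and 0.851 in DED1 cells (0.15 ± 0.06, adjusted p = 0.651). TIF4632, one of the paralogs that encode eIF4G, the scaffold to which Ded1 binds, had a difference of -0.24 ± 0.13 (adjusted p = 0.81). None of 27 other DEAD-box and DExH helicase genes passed, with a median of -0.05, and the lowest value was that of the splicing helicase PRP28 at -0.29 ± 0.10 (adjusted p = 0.547). The median efficiency differences were 0.00 over 79 large-subunit and 0.00 over 57 small-subunit ribosomal protein genes. In levels, their median log2 differences were -0.19 in footprints and -0.19 in mRNA for the large subunit, and -0.19 and -0.18 for the small. In footprints 22 and 18 of them fell, and in mRNA 1 and 2, beside 154 and 64 of all 4977 genes; the assays were not tested against each other. None of 105 ribosome assembly genes (median -0.01), 18 elongation and termination factor genes (median -0.01) or 20 aminoacyl-tRNA synthetase genes (median -0.02) passed either.

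Transcripts known for upstream reading frames, which scanning ribosomes must pass, gave no call. None of 16 tested passed the efficiency test, none lay apart between the strains, and differences ran from -0.22 to 0.38 with a median of -0.06. Over all genes, 12 of 4977 passed, and 7.23% lay apart upwards and 4.86% downwards. With so few calls, the lack of one among 16 genes says little about these transcripts. GCN4, the best studied of them and a master activator of amino acid synthesis, was named for that reason outside the selection rule. GCN4 efficiency was 0.425, 0.335 and 0.354 in DBP1 cells and 0.329, 0.345 and 0.258 in DED1 cells, a difference of 0.26 ± 0.28 (adjusted p = 0.97). The values overlap, and the 95% confidence interval of -0.36 to 0.88 leaves room for a rise of more than 1.5-fold. The 45 amino acid synthesis genes under Gcn4, by contrast, lay between -0.18 and 0.17 with a median of 0.00, and none passed.

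Respiratory genes differed between the strains in mRNA and footprints but gave no call in efficiency. Efficiency calls were few over all genes, so the lack of one in this or the following lists says little by itself. Of 37 respiratory chain and ATP synthase genes, 33 had more mRNA and 31 more footprints in DBP1 cells, with median log2 differences of 0.41 and 0.42. Over all 4977 genes, 404 had more mRNA and 517 more footprints. The median efficiency difference of the respiratory chain and ATP synthase genes was 0.02, and none passed, beside 12 of all 4977 genes. Of 18 genes of the tricarboxylic acid cycle, 17 had more mRNA, 16 had more footprints, and none passed for efficiency (median 0.01). Glycolysis (18 genes, median -0.01), the proteasome (34, median 0.02), mitochondrial ribosomal proteins (74, median 0.05), heat shock chaperones (28, median 0.06), histones (11, median 0.00), mRNA decay factors (30, median -0.02), membrane transporters (30, median 0.00), cell wall and surface proteins (29, median -0.02) and cyclins with other cell cycle genes (22, median 0.00) had no gene past the efficiency test. Of 39 genes of meiosis, when DBP1 is normally induced, 5 reached the level for testing, and none of these passed (median 0.12). Of the mating and haploid genes 1 of 17, and of the mitochondrially encoded genes 1 of 16, reached it, and neither passed.

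The coding length went weakly with the efficiency difference. Over 4924 genes with a length, Spearman's rho was -0.152 and Pearson's r -0.144 with log2 length, given as descriptions across genes that share the same 12 libraries. The median difference was 0.039 over the 989 shortest genes (78 to 675 nt) and -0.01 over the 983 longest (2106 to 14730 nt). The cultures lay apart downwards in DBP1 cells for 2.73% of the shortest and 8.65% of the longest of these genes. The share apart upwards was 6.67% in the shortest and 6.1% in the longest. The efficiency difference had no such relation to mRNA level, with a Spearman's rho of -0.007, or to footprint level, with -0.034.

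At 37C the differences of the 12 genes were smaller or of the opposite sign, as values. These genes were picked for their 30C differences, which tends to make the 30C values too large. RTN2 stood at 1.47 ± 0.25 at 30C and 0.36 ± 0.30 at 37C, GSC2 at 1.09 ± 0.14 and 0.24 ± 0.17, MSC1 at 0.94 ± 0.14 and 0.13 ± 0.17, and VTC5 at -0.56 ± 0.09 and 0.00 ± 0.11 (log2 ± SE, 30C first). RGI1 and YDL124W had the opposite sign at 37C, -0.38 ± 0.26 and -0.31 ± 0.16. The test of the difference between temperatures (37C minus 30C) called 0 of 4977 genes (0%) in limma, with 304 at an unadjusted p under 0.05 and a smallest adjusted p of 0.096. For YDL124W that difference was -1.18 ± 0.21 (adjusted p = 0.253) and for RGI1 -1.70 ± 0.33 (adjusted p = 0.253). With 2 cultures per strain at 37C, no gene passed the efficiency test there, and 329 had an unadjusted p under 0.05. The stress list had a median of 0.20 at 30C and -0.02 at 37C.

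**Figure D5:**
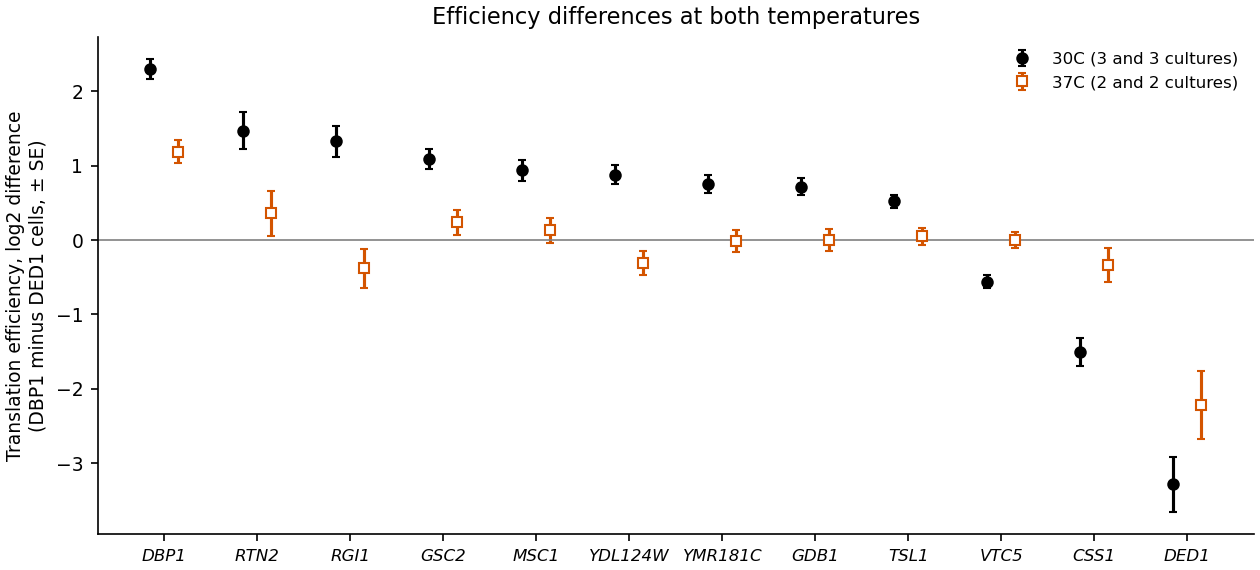
Log2 difference in translation efficiency between DBP1 and DED1 cells (± SE) of the 12 genes past the test at 30C, at 30C (filled, 3 cultures per strain) and at 37C (open, 2 cultures per strain). Values at 37C lie nearer to 0 for each gene, as for DBP1 at 2.30 and 1.19; no gene passed the test of the difference between temperatures.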

How the data were processed

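The data were 20 libraries from SK1 yeast, 10 of mRNA (50 nt fragments) and 10 of ribosome footprints (28 to 31 nt). The authors deposited their values as RPKM in 1 table of 6679 genes. The submitters' processing notes name bcl2fastq 2.17, CASAVA and Bowtie2. How paralogs sharing reads were handled, like the build and the read counter, is not given in the sources used here. Columns were matched to samples by library code, and where a column name differed from the labels the labels were followed. Gene names came from the RefSeq annotation R64, which matched 5994 of the 6679 genes (89.7%). The spacing of low RPKM values gave each library's depth, using coding lengths less 60 nt, and 84.1 to 89.9% of values under 100 reads came out whole within 0.02.

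Footprint and mRNA libraries were joined by strain, temperature, replicate number and library letter. Their deviations from the group means correlated at 0.24 to 0.62 within the cultures at 30C. At 37C, with 2 cultures per strain, the deviations of a strain mirror each other and give a single value. It was 0.65 for DBP1 and 0.55 for DED1 cells. Libraries of different cultures were not compared in this way. Efficiency was log2((footprint RPKM + 1)/(mRNA RPKM + 1)) per culture, fitted in limma 3.58.1 (R 4.3.3) over all 10 cultures with 1 mean per strain and temperature and an eBayes trend. Level ratios printed in the text carry no pseudocount, so log2 differences of low genes can be smaller or larger than those ratios give. With pseudocounts of 0.1, 1 and 5, the RGI1 difference was 1.59, 1.33 and 0.78. The TSL1 difference was 0.5, 0.52 and 0.57, and that of DED1 -2.91, -3.28 and -3.46. Whether cultures lay apart was judged on the log2 values with the pseudocount. Adjusted p-values are Benjamini-Hochberg values over the 4977 genes tested, from two-sided tests at 0.05. mRNA and footprints were fitted likewise as log2(RPKM + 1). The labels do not say how the replicates were grown, so p-values measure the spread between these cultures. The fit was also run on simulated data with the same spread for every gene. That setting differs from the data, so it says nothing about calls near the threshold or on few reads.

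Genes named were DBP1, DED1, those past the efficiency test, up to 3 per list by p, and the 5 largest uncalled differences per direction. The last were taken at a mean of 20 RPKM or more over all libraries of each assay, with cultures apart. Others are said to be chosen afterwards. The members and the 27 gene lists were chosen with earlier results of these data known. Alternatives changed the pairing, samples, pseudocount, filter, scaling and eBayes settings, and left out each culture in turn.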

Additional observations from a re-analysis of the deposited data

How the results depend on the processing

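The number of genes past the efficiency test, 12, was 5 with a pseudocount of 0.1, 4 with no filter on low values (6019 genes tested), 6 with a limit of 20 RPKM (3553 tested), 6 without the eBayes trend and 2 without joining libraries by culture. The count ranged from 8 to 16 under the other settings run, the highest with at least 50 reads per 30C library, which was chosen after seeing the data and which 10 of the 12 passed. Leaving out each culture at 30C gave 2 to 11 calls. The count of genes whose efficiency difference changed with temperature, 0, was 1 with a limit of 20 RPKM and 0 to 4 when a culture was left out, the highest without DBP1 37C replicate 1, where the lone 37C culture of that strain is assumed to vary like the other groups. The mRNA count of 468 ranged from 253 to 562 with a culture left out, and the footprint count of 671 from 339 to 712. The ratio of the expressed helicases was 0.297 to 0.346 with a culture left out. DED1 lost its efficiency call with a pseudocount of 0.1 (adjusted p = 0.21), and DBP1 kept its call in all settings run. The causes were not tested. Replicate numbers were not used to pair the strains in the main fit, and the labels do not say how same-numbered cultures relate. Same-numbered DBP1 and DED1 cultures at 30C correlated in efficiency at 0.13, -0.08 and 0.16. In mRNA they correlated at -0.11, 0 and 0.47 and in footprints at -0.16, 0.08 and 0.36. None of the 3 measures had all pairs above 0.1, but the cultures numbered 3 went together in mRNA and footprints. Whether same-numbered cultures shared a batch was not tested. With the replicate number as a block, 8 genes passed for efficiency, 4 of them among the 12, and the counts were 787 for mRNA (546 higher and 241 lower, against 404 and 64 without the block) and 890 for footprints. Depth limits genes with few footprint reads, such as RGI1 and CSS1, where an efficiency difference rests on few reads.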

Other observations

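Among genes with an efficiency difference over 1 on the log2 scale at 30C were 2 genes with the highest values of all tested, PLS1 (3.34, adjusted p = 0.38) and YOL038C-A (3.35, adjusted p = 0.636). Their cultures lay apart, but neither passed. Mean footprints over the 30C libraries were low, at 4.72 RPKM for PLS1 and 9.78 RPKM for YOL038C-A. FLO10, a flocculin gene of the cell surface, was lower by value. FLO10 efficiency was 0.774, 0.865 and 0.943 in DBP1 cells and 1.23, 2.28 and 3.01 in DED1 cells (-1.13 ± 0.25, adjusted p = 0.151). These 3 genes were chosen after their values were seen.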
